A study of Mus musculus with 46 samples.

Results

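The complement genes C1qa, C1qb, C1qc, C3, C4b, Cfb, C3ar1, C5ar1 and Cd55 were followed across cell populations sorted from mouse kidneys. These 9 genes were taken by name from a table of 53465 genes, and each name matched a single gene. All mice carried the label WT. They were C57BL/6 males, 8 to 12 weeks old, that had sham surgery, unilateral ureteric obstruction (UUO), or obstruction relieved later by reimplanting the ureter (rUUO). UUO kidneys were collected at 2 or 7 days, a time that the sample labels do not give, and rUUO kidneys 14 days after the reversal. Cells were sorted as LTL+ proximal tubule (PT) cells, F4/80+ macrophages, CD31+ endothelial cells and PDGFRB+ stromal cells. Sham, UUO and rUUO had 3, 4 and 3 samples in PT cells, 4, 4 and 3 in macrophages, 4, 3 and 4 in endothelial cells, and 4 each in stromal cells. The comparisons ask which sorted population holds the RNA of each complement gene, and how its level differs with obstruction and after its relief.

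Complement is a cascade of plasma and tissue proteins that marks surfaces and draws in immune cells. In the classical pathway C1q, built from the products of C1qa, C1qb and C1qc, recognises a target, and C4 is cleaved to form, with C2, an enzyme that splits C3. In the alternative pathway factor B, the product of Cfb, binds activated C3 and amplifies the same step. The fragments C3a and C5a act on the receptors C3ar1 and C5ar1, and Cd55, decay-accelerating factor, takes the C3-splitting enzymes apart on the cell surface. In the kidney, tubular cells and leukocytes are both known to make complement proteins locally.

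The start regions of 6 of the 9 genes were found in RefSeq (GRCm38.p6): C1qb, C1qc, C3, C3ar1, C5ar1 and Cd55. The 250 bases before each start were searched on both strands for short motifs of factors that act in myeloid or inflamed cells. The letters searched were GAGGAA (PU.1 core), TTNNGCAA (C/EBP), TTCNNNGAA (STAT), GGG and TTCC with 3 bases between them (NF-kB), and GAAA repeated with 2 bases between (the interferon-stimulated response element). Of 32851 promoters, 23.3% held the first, 9.56% the second, 7.02% the third, 4.65% the fourth and 2.98% the fifth, so a match alone is common. The 4 matches shown lie in genes read mainly in macrophages (C1qb, C1qc, C3ar1) and in C3, which changed most of the 9 in PT cells. None is shown for C5ar1, also read mainly in macrophages, or for Cd55. The motif is in capitals, each run is the minus strand read 5′ to 3′, distances are from RefSeq's start, and a match is only a run of letters, not a measured binding site.
C1qb, PU.1 core 30 to 25 bases before the start, chr4:136886213-136886242: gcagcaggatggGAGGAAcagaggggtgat
C1qc, PU.1 core in reverse, 193 to 188 bases before the start, chr4:136893090-136893119: gacggcagacacTTCCTCattttggcacac
C3, C/EBP in reverse, 45 to 38 bases before the start, chr17:57228163-57228192: aggaaactatgTTGCGAAAttttgggcagt
C3ar1, NF-kB in reverse, 14 to 5 bases before the start, chr6:122856158-122856187: ttaagaggtgactcatGGAAAGGCCCttcc

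Values are FPKM, a sample's fragments scaled to transcript length and to its total, which sum to between 586929 and 884982 per sample. The table holds no counts, so the absolute depth is unknown; relative depth, read from the steps between low values, ran from 0.593 to 1.65 around a median of 1. Mitochondrial genes took 58.7 to 75.6% of the sum in PT samples and 20.2 to 45.8% in the others. All markers fixed for a population were read in it, except that 7 of the 8 stromal markers were in the table. The title of PT UUO 2 names both sham and UUO, and it was grouped by its treatment label. Macrophage UUO 2 stood apart in C1qa and in its mitochondrial share, 37.8% against 20.4 to 28.0% in the other macrophage samples. It also had the highest C3 and the lowest C3ar1 of the macrophage samples. Changes are differences of mean log2(FPKM + 1), tested by limma with Benjamini-Hochberg adjustment over all genes tested in the population. In these sorted but bulk samples, fewer cells of a type and less RNA per cell cannot be told apart, and p-values measure only the spread between these samples.

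No complement gene of the 9 passed the test downwards in any of the 12 comparisons, and 18 results passed upwards. After UUO, 3 of the 8 genes tested rose in PT cells (C3, C4b, Cd55), where 32.8% of all genes changed and 27.9% rose, so their share was near that of all genes. In macrophages 3 of 9 rose (C3, C4b, Cfb), against 4.99% of all genes changed and 2.86% rising. In endothelial cells 1 of 7 rose (Cfb), against 1.98% and 1.28%, and in stromal cells 3 of 9 (C4b, Cfb, Cd55), against 26.4% and 13.4%. In rUUO against sham, C3 and C4b of 8 rose in PT cells (7.46% of all genes changed, 6.52% rising) and of 9 in macrophages (3.44% and 1.89%), C3 and Cfb of 7 in endothelial cells (1.77% and 1.4%), and C4b and Cd55 of 9 in stromal cells (17.2% and 11.6%). Between rUUO and UUO none of them passed, against 3.83% of all genes in PT cells, 0.0597% in endothelial cells and 4.17% in stromal cells. In macrophages this comparison called 0 of 13332 genes, with 945 at an unadjusted p under 0.05 in limma. The median change of the genes tested after UUO was 0.25 in PT cells, 0.04 in macrophages, 0.29 in endothelial cells and 0.17 in stromal cells, and over all genes 0.51, −0.03, 0.03 and −0.07. PT changes below are to be read against this upward shift of 0.51 after UUO and 0.21 in rUUO. C5ar1 in PT cells, and C4b and C5ar1 in endothelial cells, were under the filter of a mean of 1 FPKM and were not tested. In PT cells C4b and Cd55 averaged under it in sham and passed it through UUO and rUUO samples, so their PT rises start from such low values.

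**Figure D1:**
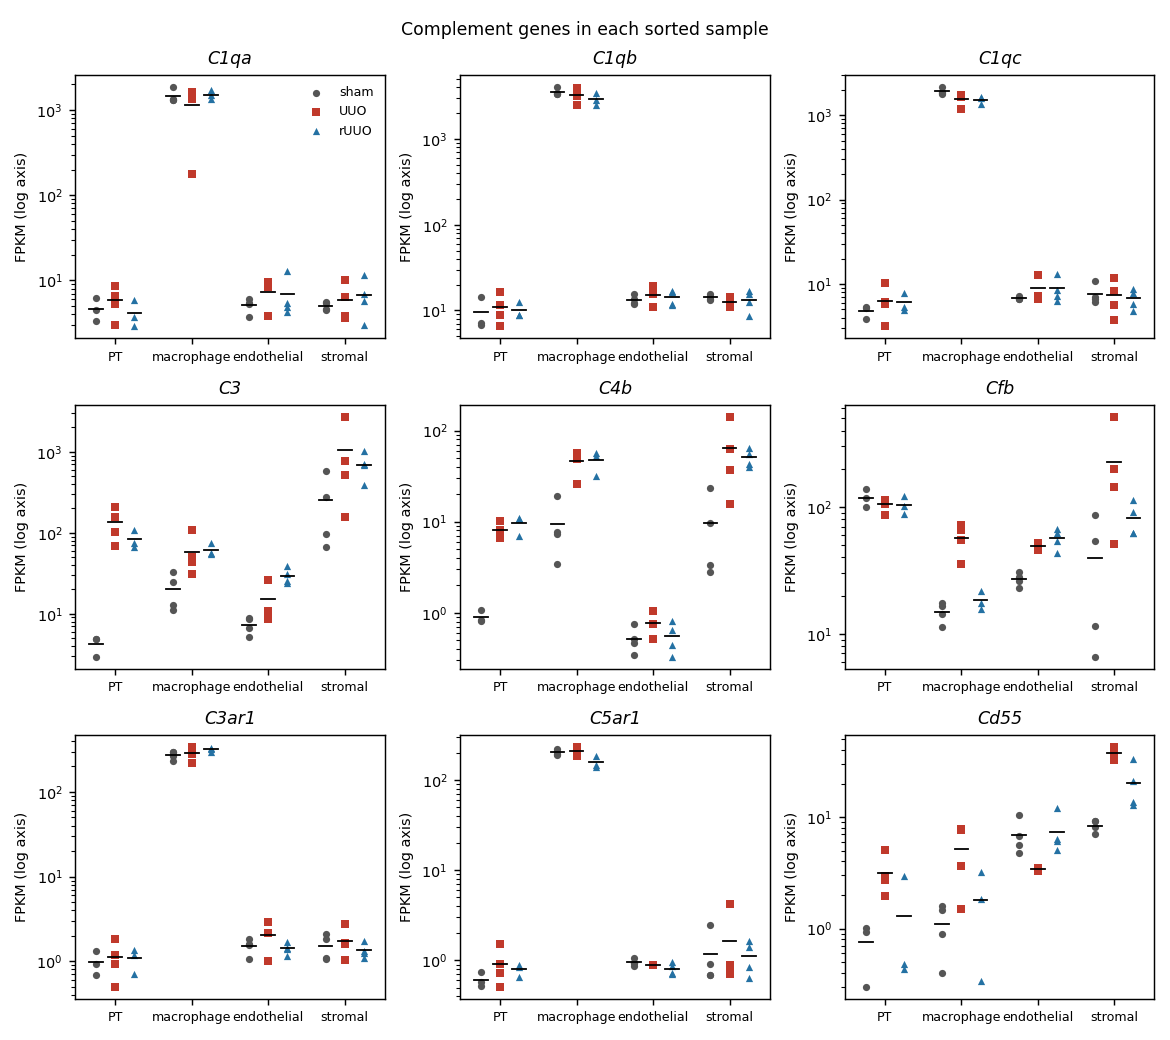
FPKM (log axis) of the 9 genes in each of the 44 samples by sorted population, with sham as grey circles, UUO as red squares, rUUO as blue triangles and a bar at each group mean. C1qa, C1qb, C1qc, C3ar1 and C5ar1 sit far higher in macrophages than in the other populations; C3 in PT cells runs from 2.96 to 4.92 in sham and from 69.3 to 210.3 after UUO.

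The 3 chains of C1q were read almost wholly in the macrophage gate after each surgery. C1qb was the highest per length, with 3357, 3352, 3422 and 4105 FPKM in sham, 3920, 2514, 3648 and 3149 FPKM after UUO, and 2857, 3476 and 2509 FPKM in rUUO. C1qc had 1876, 1762, 1819 and 2184 FPKM in sham, 1717, 1199, 1686 and 1649 FPKM after UUO, and 1650, 1581 and 1347 FPKM in rUUO. The groups of C1qb overlapped, whereas each C1qc value after UUO or in rUUO lay below the lowest sham value. C1qa had 1353, 1315, 1320 and 1888 FPKM in sham, 1458, 176, 1355 and 1621 FPKM after UUO, and 1500, 1721 and 1330 FPKM in rUUO. One library, macrophage UUO 2, held about an order of magnitude less C1qa than the rest. None of the 3 genes passed the test in any macrophage comparison. The change after UUO was −0.74 ± 0.52 (SE) for C1qa, −0.12 ± 0.18 for C1qb and −0.30 ± 0.16 for C1qc, with adjusted p of 0.473, 0.772 and 0.333. Without macrophage UUO 2 that of C1qa was 0.022 and that of C1qb 0.0050.

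The ratio of C1qa to C1qb in macrophage UUO 2 was 0.0701, while in the other 10 macrophage samples it ran from 0.371 to 0.530. The ratio of C1qc to C1qb was 0.438 to 0.578 over all 11 macrophage samples. Macrophage UUO 2 thus had the lowest C1qa and C1qc of the macrophages and the second lowest C1qb, but kept the usual ratio only for C1qc. The genes lie beside each other on chromosome 4, C1qb at 136880129 to 136886187, C1qc at 136889804 to 136893065 and C1qa at 136895917 to 136898803 (GRCm38), all on the minus strand and with at most 3 exons per transcript. None shared a 100-base window with another gene's transcripts.

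**Figure D2:**
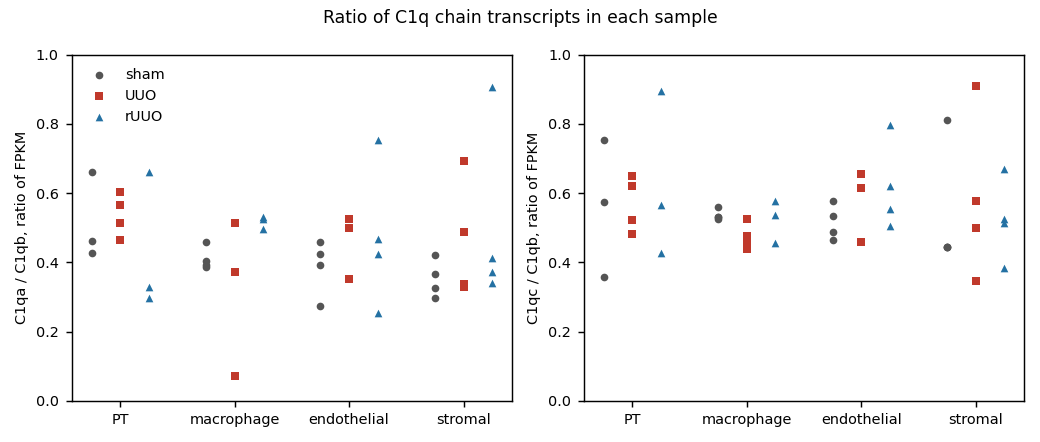
Ratio of C1qa to C1qb (left) and of C1qc to C1qb (right) in FPKM for each sample, by population and surgery. Macrophage samples cluster tightly except for 1 UUO sample at 0.0701 on the left; the other populations, with low FPKM, spread more widely.

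Outside macrophages the C1q genes were low in all 33 samples, at 2.88 to 12.9 FPKM for C1qa, 6.52 to 19.3 FPKM for C1qb and 3.15 to 13.2 FPKM for C1qc. As a share of the macrophage mean of the same surgery, the 9 other group means were 0.273 to 0.629% for C1qa, 0.266 to 0.482% for C1qb and 0.252 to 0.581% for C1qc. The summed level of the 10 macrophage markers in those groups was 0.361 to 1.46% of the macrophage level. These small levels stood beside macrophage marker RNA at a share that reached higher, and its part in them was not tested. In sham kidneys PT cells minus macrophages came to −8.04 for C1qa, −8.48 for C1qb and −8.37 for C1qc on the log2(FPKM + 1) scale, with adjusted p of 1.81e-14, 7.77e-15 and 4.57e-15 by limma. Sham levels of all 9 genes differed between populations, but so did those of 84.7% of all genes. Between pairs of populations 64.9% of all genes differed for PT and macrophages, 62.3% for PT and endothelial cells, 67.6% for PT and stromal cells, 45.7% for macrophages and endothelial cells, 48.1% for macrophages and stromal cells and 24.2% for endothelial and stromal cells. PT cells minus stromal cells came to −0.63 for C1qb and −0.55 for C1qc (adjusted p = 0.0147 and 0.0188), and PT minus endothelial cells to −0.52 for C1qb (adjusted p = 0.0412). This order turned over when mitochondrial genes were left out of the scaling or samples were quantile normalized, so no order is read from it.

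The receptors for the anaphylatoxins followed the same gate. C3ar1, the C3a receptor, had 231, 269, 300.1 and 299 FPKM in sham macrophages, 301, 219, 340.5 and 281 FPKM after UUO, and 299, 331 and 322 FPKM in rUUO. C5ar1, the C5a receptor, had 221, 196, 207 and 191 FPKM in sham, 232, 197, 222 and 183 FPKM after UUO, and 184, 147 and 139.8 FPKM in rUUO. C3ar1 overlapped between all groups, whereas the 3 rUUO values of C5ar1 lay below every sham value. Neither passed the test. C5ar1 differed by −0.38 ± 0.16 (SE) between rUUO and sham (adjusted p = 0.259) and by −0.41 ± 0.16 between rUUO and UUO (adjusted p = 0.613), and C3ar1 by 0.21 ± 0.18 between rUUO and sham (adjusted p = 0.605). After UUO the changes were 0.04 for C3ar1 and 0.03 for C5ar1, and both had the opposite sign after rescaling to an equal sum or quantile normalization.

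In the 33 samples of the other populations C3ar1 had 0.50 to 2.94 FPKM and C5ar1 0.51 to 4.26 FPKM. The group means were 0.341 to 0.712% of the macrophage mean for C3ar1 and 0.301 to 0.793% for C5ar1, again beside macrophage marker RNA of 0.361 to 1.46%. The highest C5ar1 value outside macrophages was in stromal UUO 2, at 4.26 FPKM, and the other 3 stromal UUO samples had 0.71, 0.89 and 0.75 FPKM. That sample also had the highest sum of the 6 neutrophil markers among stromal samples, 57.4 FPKM against 0.32 to 42.2 FPKM in the other 11. The 2 measures did not go together throughout: stromal rUUO 4, with 42.2 FPKM of these markers, had 1.4 FPKM of C5ar1, and stromal sham 4, with 0.83 FPKM, had 2.45 FPKM. The part of neutrophils in the C5ar1 values was not tested.

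C4b, which encodes complement C4, rose in PT cells, macrophages and stromal cells and was too low in endothelial cells to be tested within them. PT cells had 1.06, 0.82 and 0.83 FPKM in sham, 10.3, 6.61, 8.19 and 7.40 FPKM after UUO, and 10.9, 7.02 and 10.7 FPKM in rUUO. All sham values lay below all others. They averaged under the filter of 1 FPKM, which C4b passed in PT cells through UUO and rUUO samples. The change was 2.25 ± 0.26 (SE) after UUO (adjusted p = 2.42e-05) and 2.45 ± 0.28 in rUUO (adjusted p = 5.53e-05). On the log2(FPKM + 0.1) scale it was 3.02 and 3.25, since a pseudocount of 1 shrinks changes from such low levels, and after quantile normalization the first was 1.62. Without PT UUO 2 it was 2.33. Sums of cell type markers in the same PT samples are given in the order sham, UUO and rUUO. The 4 monocyte markers summed to 1.34 to 5.71, 26.0 to 31.8 and 15.7 to 22.3 FPKM, with Chil3 at 0 in all rUUO samples. The 8 PT markers summed to 4975 to 6084, 1969 to 2896 and 2982 to 3326 FPKM. In the 10 macrophage markers the groups overlapped, with 34.2 to 63.5, 39.4 to 93.3 and 49.8 to 58.1 FPKM. These values stand beside every PT rise of C4b, C3 and Cd55, and their part in those rises was not tested.

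Macrophages had 7.30, 7.60, 19.0 and 3.44 FPKM of C4b in sham, 48.8, 55.6, 25.8 and 57.1 FPKM after UUO, and 31.9, 52.4 and 57.2 FPKM in rUUO. The sham values again lay below all others, by 2.36 ± 0.39 (SE) after UUO (adjusted p = 0.00351) and 2.39 ± 0.42 in rUUO (adjusted p = 0.00628). Beside this rise, the summed level of the 4 monocyte markers in the macrophage gate was 52.0 to 93.7 FPKM in sham, 228 to 270.0 FPKM after UUO and 131 to 151 FPKM in rUUO. That of the 8 PT markers was 239 to 354, 44.3 to 82.3 and 34.6 to 43.9 FPKM in the same order. The part of either in the macrophage rises of C4b, C3 and Cfb was not tested.

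Stromal cells had 3.33, 9.73, 23.2 and 2.77 FPKM of C4b in sham, 63.0, 37.1, 15.6 and 142 FPKM after UUO, and 65.1, 55.1, 40.3 and 43.3 FPKM in rUUO. Sham and UUO overlapped in 1 sample on each side, sham 3 and UUO 3, and all rUUO values were above all sham values. The rise was 2.60 ± 0.60 (SE) after UUO (adjusted p = 0.00414) and 2.66 ± 0.60 in rUUO (adjusted p = 0.00534). Endothelial cells held 0.33 to 1.05 FPKM throughout. C4b shared 15.2% of its 100-base transcript windows with C4a, whose group means were 0.00333 to 0.743 FPKM, so a small part of its reads could be divided between them.

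Over the 4 populations the test of a difference in the change of C4b gave an adjusted p of 0.0158 after UUO and 0.00669 in rUUO against sham (moderated F test). Endothelial C4b was under the filter and entered this fit only because the other populations were high, so both values restate their rise and no difference is read from them. Among PT cells, macrophages and stromal cells no pair differed by the test: after UUO the change in PT cells minus that in macrophages was −0.11 (adjusted p = 0.943), PT minus stromal cells −0.36 (adjusted p = 0.733) and macrophages minus stromal cells −0.24 (adjusted p = 0.850), and in rUUO the pairs had adjusted p of 0.986, 0.921 and 0.859. Counting C4b, 4 of the 9 genes passed the F test after UUO, against 33.5% of all genes, in rUUO against UUO 1 of 9 (5.57%), and in rUUO against sham 1 of 9 (15.1%), which was C4b itself. Between pairs of populations the change after UUO differed in 15.5% of all genes for PT and macrophages, 11.1% for PT and endothelial cells, 29.2% for PT and stromal cells, 2.31% for macrophages and endothelial cells and 13.1% for endothelial and stromal cells. In sham kidneys macrophages and stromal cells did not pass against each other in C4b (0.15, adjusted p = 0.837), nor did PT and endothelial cells (0.33, adjusted p = 0.612). Each of the first pair passed against each of the second (adjusted p up to 0.00269). Sham PT cells had 0.82 to 1.06 FPKM and sham endothelial cells 0.34 to 0.75 FPKM. C4b entered this fit only through macrophages and stromal cells, so no order is read from these tests. After quantile normalization PT cells passed against neither macrophages (adjusted p = 0.0822) nor stromal cells (adjusted p = 0.255).

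C3, the component on which the pathways converge, had its largest change in PT cells. There it had 4.92, 4.89 and 2.96 FPKM in sham, 69.3, 101.5, 210.3 and 159 FPKM after UUO, and 67.3, 75.4 and 108 FPKM in rUUO. No sham value came near another group, and rUUO and UUO overlapped. The change was 4.59 ± 0.33 (SE) after UUO (adjusted p = 2.01e-07) and 4.00 ± 0.35 in rUUO (adjusted p = 5.81e-06). Between rUUO and UUO it was −0.59 ± 0.33 (adjusted p = 0.307). Without PT UUO 2 the change after UUO was 4.69. The summed level of the 7 stromal markers in PT cells was 15.9 to 21.7 FPKM in sham, 19.3 to 43.3 FPKM after UUO and 21.5 to 29.6 FPKM in rUUO, against 4952 to 10046 FPKM in stromal cells after surgery. In the same PT samples the 10 macrophage markers summed to 34.2 to 63.5, 39.4 to 93.3 and 49.8 to 58.1 FPKM. The summed monocyte markers were higher and the summed PT markers lower in every sample after surgery, with the values given at C4b.

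Stromal cells held the most C3, with 96.3, 281, 580.4 and 66.0 FPKM in sham, 516, 777, 158 and 2715 FPKM after UUO, and 698, 687, 385 and 1011 FPKM in rUUO. The spread within sham and within UUO was wide, and sham overlapped with both other groups. The change missed the threshold after UUO, at 1.84 ± 0.72 (SE, adjusted p = 0.0743), and in rUUO, at 1.86 ± 0.72 (adjusted p = 0.0949). It passed after UUO without sham 3 (2.40, adjusted p = 0.0230) or without UUO 3 (2.51, adjusted p = 0.0111). At the other end it was 1.15 without UUO 4 (adjusted p = 0.223). In rUUO it passed without sham 3 (2.43, adjusted p = 0.0312), UUO 3 (adjusted p = 0.0468) or UUO 4 (adjusted p = 0.0441), and was lowest without sham 4 (1.39, adjusted p = 0.266). Both also passed in the fit on all 4 populations, at adjusted p of 0.0100 and 0.0130.

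Macrophages had 12.9, 24.4, 33.1 and 11.1 FPKM of C3 in sham, 30.6, 108, 49.8 and 43.1 FPKM after UUO, and 74.0, 55.0 and 57.1 FPKM in rUUO. UUO overlapped with sham in its lowest sample, and rUUO lay above sham. The changes of 1.43 ± 0.37 (SE) and 1.68 ± 0.40 passed narrowly, at adjusted p of 0.0430 and 0.0376. The first no longer passed without any 1 of 9 of the 11 samples (1.08 to 1.70, adjusted p up to 0.124) and the second without any 1 of 7 (1.45 to 1.94, adjusted p up to 0.146). Endothelial cells had 5.12, 8.87, 8.54 and 6.62 FPKM in sham, 8.52, 10.9 and 26.0 FPKM after UUO, and 25.1, 23.7, 31.0 and 38.7 FPKM in rUUO. Here the highest values came after the reversal, 1.89 ± 0.31 above sham (adjusted p = 0.00443). The change after UUO was 0.83 ± 0.34 (adjusted p = 0.288), and between rUUO and UUO 1.05 ± 0.34 (adjusted p = 0.322). The monocyte markers in endothelial cells summed to 40.5 to 57.8, 58.1 to 78.6 and 51.9 to 115 FPKM in sham, UUO and rUUO, and their part in the C3 and Cfb values was not tested.

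The change of C3 after UUO differed between populations (moderated F test, adjusted p = 0.00215). The rise in PT cells exceeded that in macrophages by 3.16 ± 0.81 (SE, adjusted p = 0.00577), that in endothelial cells by 3.76 ± 0.84 (adjusted p = 0.00178) and that in stromal cells by 2.76 ± 0.81 (adjusted p = 0.00894). The last was 2.08 without stromal UUO 3 and 3.45 without stromal UUO 4. In rUUO against sham the same test gave an adjusted p of 0.148. In sham kidneys PT cells minus stromal cells came to −5.13, endothelial minus stromal cells to −4.47 and macrophages minus stromal cells to −3.21 (adjusted p = 4.47e-07, 2.70e-06 and 4.75e-05), so stromal cells were the highest. Macrophages did not pass against endothelial cells (1.26, adjusted p = 0.0530), nor PT against endothelial cells (−0.66, adjusted p = 0.314). Macrophages passed against PT cells (adjusted p = 0.00578), but not after quantile normalization or after scaling without mitochondrial genes.

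**Figure D3:**
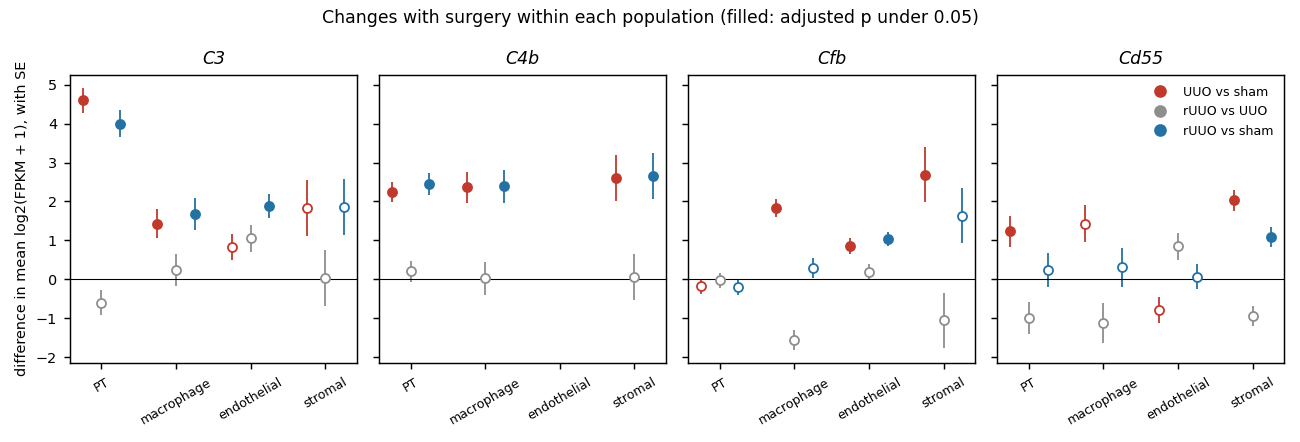
Change of C3, C4b, Cfb and Cd55 in each population as the difference in mean log2(FPKM + 1), with bars of 1 SE, filled where the adjusted p was under 0.05 (C4b was not tested in endothelial cells). C3 reaches 4.59 in PT cells, Cfb is near 0 in PT cells and 2.68 in stromal cells after UUO, and no grey point (rUUO against UUO) is filled.

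Cfb, which encodes factor B of the alternative pathway, showed another order. PT cells held it at a high level in sham, 139, 117 and 101 FPKM, and at 86.5, 106, 113 and 113 FPKM after UUO and 121, 101 and 87.9 FPKM in rUUO. These groups overlapped, and the change after UUO was −0.18 ± 0.19 (SE, adjusted p = 0.490). Relative to the upward shift of all genes it was lower, and after quantile normalization it was −0.50 (adjusted p = 0.0287). The 6 distal tubule markers summed to 854 to 1208, 726 to 1010 and 955 to 1096 FPKM in sham, UUO and rUUO PT samples. The part of distal tubule RNA in the PT values of Cfb and of the other genes was not tested. In sham, PT cells exceeded macrophages by 2.91, endothelial cells by 2.10 and stromal cells by 2.19 (adjusted p = 0.000268, 0.00423 and 0.00286). The other 3 populations did not pass against each other.

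In macrophages Cfb had 17.5, 16.5, 11.3 and 14.4 FPKM in sham, 54.9, 65.4, 35.7 and 71.7 FPKM after UUO, and 17.5, 21.9 and 15.6 FPKM in rUUO. All UUO values lay above all others, and rUUO overlapped with sham. The rise was 1.83 ± 0.24 (SE, adjusted p = 0.000555). The difference between rUUO and UUO was −1.55 ± 0.26 and did not pass (adjusted p = 0.0890), though it did without macrophage UUO 3 (−1.75, adjusted p = 0.0228). Between rUUO and sham it was 0.28 ± 0.26 (adjusted p = 0.644). The monocyte markers in this gate had the same order of groups, 52.0 to 93.7, 228 to 270.0 and 131 to 151 FPKM in sham, UUO and rUUO, and their part in the Cfb values was not tested.

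Endothelial cells had 25.9, 27.9, 30.9 and 22.9 FPKM of Cfb in sham, 50.3, 46.1 and 51.5 FPKM after UUO, and 61.8, 43.1, 67.6 and 54.2 FPKM in rUUO. Sham lay below both other groups, which overlapped. The rise was 1.04 ± 0.19 (SE) in rUUO (adjusted p = 0.00924) and 0.86 ± 0.21 after UUO (adjusted p = 0.0438). The latter did not pass without any 1 of 10 of the 11 samples (0.79 to 0.92, adjusted p up to 0.124), and in the fit on all 4 populations neither did (adjusted p = 0.480 and 0.268).

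Stromal cells had 11.6, 53.7, 86.2 and 6.61 FPKM of Cfb in sham, 144, 201, 50.7 and 515 FPKM after UUO, and 90.8, 61.9, 62.8 and 114 FPKM in rUUO. Sham overlapped with both. The rise was 2.68 ± 0.70 (SE) after UUO (adjusted p = 0.00991), and 2.09 without sham 4 (adjusted p = 0.0378). Without the filter on low values it missed the threshold (adjusted p = 0.0522). In rUUO the change was 1.63 ± 0.70 (adjusted p = 0.134), and it passed without sham 3 (2.21, adjusted p = 0.0384) and in the fit on all 4 populations (adjusted p = 0.0100), and was 1.04 without sham 4 (adjusted p = 0.371). The change of Cfb after UUO differed between populations (moderated F test, adjusted p = 0.00655), with a change in PT cells minus that in stromal cells of −2.86 ± 0.69 (adjusted p = 0.00144) and minus that in macrophages of −2.01 ± 0.69 (adjusted p = 0.0412). The latter did not pass without any 1 of 13 of the 44 samples, under rescaling to an equal sum (adjusted p = 0.0599) or without the filter (adjusted p = 0.0965). Of the Cfb windows, 66.9% were shared with Gm20547, an overlapping gene on the same strand that was listed at 0 to 0.50 FPKM.

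In stromal samples C3, C4b and Cfb had the same extremes in the sham and UUO groups: sham 3 was the highest and sham 4 the lowest of the sham samples for all 3, and UUO 4 the highest and UUO 3 the lowest after UUO. The summed level of the 7 stromal markers had sham 3 highest at 2257 FPKM and UUO 4 highest at 10046 FPKM, with UUO 3 the lowest after UUO at 6021 FPKM. The lowest sham sum was that of sham 1, at 894 FPKM, and not that of sham 4, at 980 FPKM. Over the groups that sum ran from 894 to 2257 FPKM in sham, from 6021 to 10046 FPKM after UUO and from 4952 to 6118 FPKM in rUUO. The 6 distal tubule markers summed to 497 to 733, 42.3 to 82.4 and 82.8 to 142 FPKM in the same groups. The 4 monocyte markers summed to 5.57 to 19.5, 73.9 to 138 and 28.3 to 44.5 FPKM. The 10 macrophage markers went the other way, with 113 to 127, 43.6 to 106 and 59.0 to 99.7 FPKM. These sums moved with surgery beside each stromal rise of C3, C4b, Cfb and Cd55, a share of cells and RNA per cell cannot be told apart in them, and their part in the rises was not tested. Of these lists only Chil3, a monocyte marker, was at 0 in all samples of a group, in sham and in UUO.

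**Figure D4:**
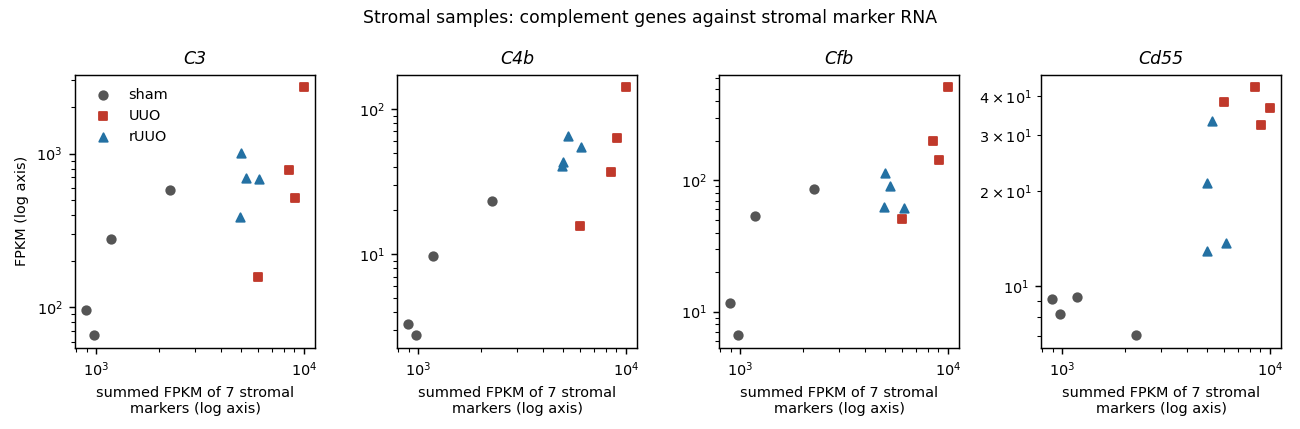
FPKM of C3, C4b, Cfb and Cd55 (log axis) against the summed FPKM of 7 stromal markers (log axis) in the 12 stromal samples. Sham samples lie at 894 to 2257 on the horizontal axis and samples after surgery at 4952 to 10046; Cd55 in sham stays between 7.02 and 9.25 FPKM over that range of marker RNA, while C3, C4b and Cfb do not.

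Cd55, the regulator that disassembles the C3-splitting enzymes, rose most clearly in stromal cells. They had 9.15, 9.25, 7.02 and 8.21 FPKM in sham, 32.4, 42.7, 38.3 and 36.6 FPKM after UUO, and 33.4, 13.7, 13.0 and 21.2 FPKM in rUUO. Each group lay apart from sham, and rUUO lay between sham and UUO save for rUUO 1, which reached the UUO range. The change was 2.03 ± 0.26 (SE) after UUO (adjusted p = 3.53e-05) and 1.09 ± 0.26 in rUUO (adjusted p = 0.00919). Between rUUO and UUO it was −0.94 ± 0.26 and missed the threshold (adjusted p = 0.0578), but it passed without rUUO 1 (−1.21, adjusted p = 0.0182) and after quantile normalization (−1.02, adjusted p = 0.0411).

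PT cells had 0.30, 0.93 and 1.02 FPKM of Cd55 in sham, 1.94, 5.02, 2.99 and 2.74 FPKM after UUO, and 2.96, 0.43 and 0.48 FPKM in rUUO. Sham PT values averaged under the filter of 1 FPKM, which Cd55 passed there through UUO and rUUO samples. UUO lay above sham, by 1.23 ± 0.40 (SE, adjusted p = 0.0308), against a shift of all genes of 0.51. This call was lost without any 1 of 6 of the 10 samples, PT UUO 2 among them (1.04, adjusted p = 0.0776), after quantile normalization (0.57, adjusted p = 0.366) and after scaling without mitochondrial genes (adjusted p = 0.0753). Macrophages had 1.60, 1.48, 0.90 and 0.40 FPKM in sham, 1.51, 7.86, 7.63 and 3.67 FPKM after UUO, and 1.83, 0.34 and 3.2 FPKM in rUUO. UUO 1 lay within the sham range, and the change of 1.43 ± 0.47 did not pass (adjusted p = 0.105), although it did in the fit on all 4 populations (adjusted p = 0.0108).

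In endothelial cells Cd55 had 4.81, 6.75, 10.4 and 5.67 FPKM in sham, 3.50, 3.31 and 3.53 FPKM after UUO, and 6.31, 6.10, 5.10 and 12.1 FPKM in rUUO. The 3 UUO values were the lowest of the 11, but the change of −0.78 ± 0.34 (SE) did not pass (adjusted p = 0.330). The change of Cd55 after UUO differed between populations (moderated F test, adjusted p = 0.000471), with a change in endothelial cells minus that in stromal cells of −2.82 ± 0.54 (adjusted p = 0.000241). The change in macrophages exceeded the endothelial one by 2.21 ± 0.54 (adjusted p = 0.0158), and that in PT cells did so by 2.01 ± 0.56 (adjusted p = 0.0127), a call lost after quantile normalization (1.42, adjusted p = 0.0976). The change between rUUO and UUO also differed (adjusted p = 0.0474), a call lost without any 1 of 31 of the 44 samples (adjusted p up to 0.117), with a pseudocount of 0.1 (0.0854), without the filter (0.0783), without mitochondrial genes (0.0804) and after quantile normalization (0.104). In sham kidneys endothelial cells did not pass against stromal cells (−0.29, adjusted p = 0.510), and both were above macrophages and PT cells, which did not pass against each other (adjusted p = 0.498). Sham PT cells averaged under the filter of 1 FPKM, and Cd55 entered the sham fit through the other populations, so no order against PT cells is read. Cd55 shared 4.19% of its windows with Cd55b and overlapped with the antisense gene Gm16083, listed at 0 to 0.55 FPKM.

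Of a list of 47 further complement genes, 46 had a single row and were counted by the same tests (Itgam did not). In PT cells 7 of the 13 tested rose after UUO, where 27.9% of all genes rose and 32.8% passed in either direction, and C8g, a terminal pathway subunit, fell (−1.53). The largest was Clu, clusterin, a fluid-phase inhibitor of the terminal complex, with means of 5.91 ± 1.84 FPKM in the 3 sham samples, 421 ± 68.9 FPKM in the 4 UUO samples and 137 ± 14.9 FPKM in the 3 rUUO samples (SD). Its change of 5.96 ± 0.22 (SE) exceeded that of C3. Cfi, the protease that cleaves active C3 and C4 fragments, rose by 2.82, Cd59a, which blocks the terminal complex at the membrane, by 2.20, and Cd59b, its close paralog, with which it could share reads, by 1.66 (adjusted p = 9.45e-06, 2.65e-05 and 0.00664). The median of the list was 0.75 against 0.51 over all genes. In rUUO against sham only Clu (4.35) and Cfi (2.61) of the 13 passed, where 6.52% of all genes rose, and between rUUO and UUO, where 3.83% of all genes passed, Clu (−1.60) and Cd59a (−1.25) fell.

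In stromal cells 7 of 18 rose and Cd59a (−1.03) fell after UUO, beside 13.4% of all genes rising and 26.4% passing in either direction, and the median was 1.03 against −0.07 over all genes. The largest rises were those of Colec12, a collectin receptor (2.21), C2 of the classical pathway (2.03), Vtn, vitronectin (1.84), and Serping1, the C1 inhibitor (1.79). In rUUO against sham 8 of 18 rose, beside 11.6% of all genes, led by C6 of the terminal pathway (3.25), Colec12 (2.66), C2 (2.13) and Serping1 (1.69). The median was then 0.69 against 0.15 over all genes.

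In macrophages 2 of 17 rose after UUO, beside 2.86% of all genes: Cfp, properdin, which stabilises the alternative-pathway enzyme (2.37, adjusted p = 9.47e-05), and Clu (1.87, adjusted p = 0.00548). Mean Cfp was 14.9 ± 3.50 FPKM in 4 sham samples, 82.2 ± 20.5 FPKM in 4 UUO samples and 42.2 ± 7.27 FPKM in 3 rUUO samples (SD). In rUUO against sham Clu (1.51) and Cfp (1.45) rose and C2 fell by 1.20 (adjusted p = 0.0432), where 1.89% of all genes rose and 3.44% passed in either direction. In endothelial cells Clu (1.48) and Cd93 (1.00), of 14 tested, rose after UUO, beside 1.28% of all genes, and Cd93 (1.22) in rUUO against sham, beside 1.4%. The list's median after UUO was 0.49 in macrophages against −0.03 over all genes, and 0.07 in endothelial cells against 0.03.

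**Figure D5:**
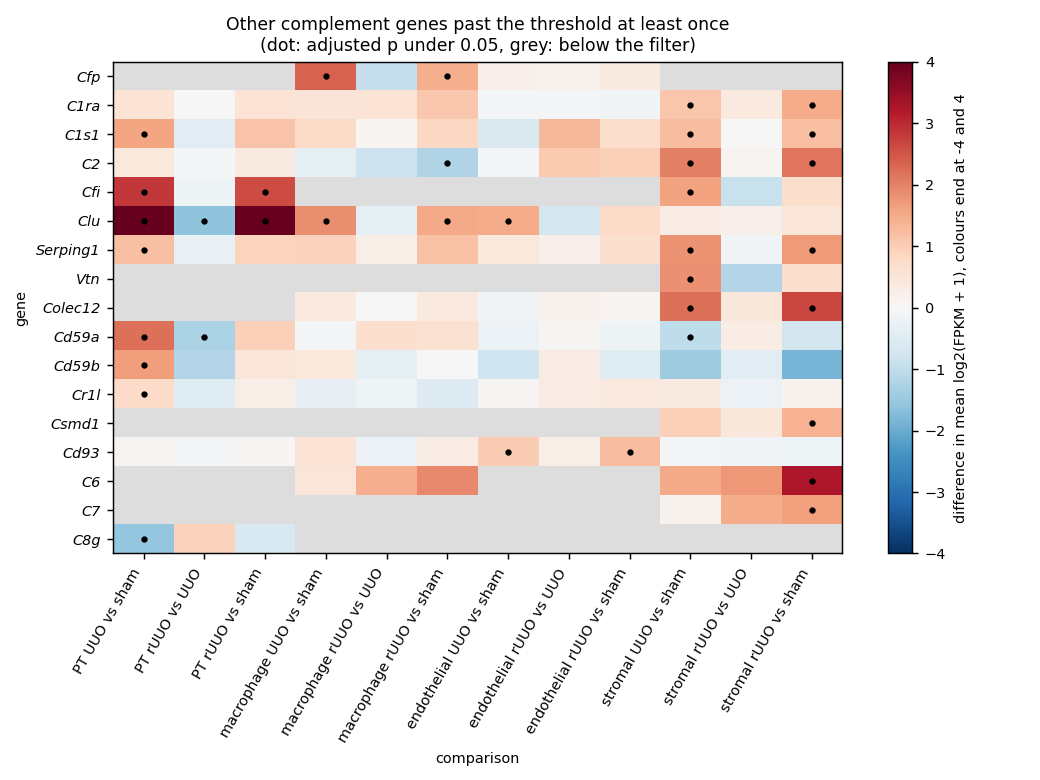
Change of the 17 further complement genes that passed the test in at least 1 of the 12 comparisons, as the difference in mean log2(FPKM + 1), with a dot where the adjusted p was under 0.05 and grey where a gene was below the filter. The colour scale ends at 4, below Clu in PT cells (5.96 after UUO); PT cells and stromal cells hold most of the dots.

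Over the 44 samples, the genes whose log2(FPKM + 1) was most like each complement gene were searched among 14323 genes. The mean of C1qa, C1qb and C1qc was closest to Adgre1, which encodes F4/80, and Il10ra (both with Pearson's r of 0.997), C3ar1 to Adgre1 (0.998) and Ctss (0.997), and C5ar1 to Ptprc and Tlr13 (both 0.994). C3 was closest to Cp, which encodes ceruloplasmin (0.905), and Eya2 (0.880), C4b to Irs2 (0.871) and Cebpb (0.850), Cfb to Mlec (0.771) and Snx7 (0.748), and Cd55 to Ckap4 (0.912) and Copz2 (0.904). These values describe the pattern over populations and surgeries, in which samples share a population, a scaling and a depth.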

How the data were processed

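RNA of sorted kidney cells was amplified (Ovation RNA-Seq System V2), then sequenced as paired reads of 150 bases. Tools named in the submitters' processing notes are FastQC, Bowtie2, RSEM and DESeq2, with build mm10, in no stated order. The authors deposited FPKM values per gene. Of 46 value columns, 44 were used; the 2 others share a single name and could not be assigned. No columns were identical.

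Groups came from the labels. Genes averaging 1 FPKM or more in the samples fitted were tested on log2(FPKM + 1) with limma 3.58.1 in R 4.3.3 (lmFit, eBayes with an intensity trend, two-sided). Changes with surgery were fitted within each population, and differences between populations in those changes over all 44 samples. Sham levels were compared between populations in a fit on the sham samples alone. Benjamini-Hochberg adjusted p-values were read at 0.05. The code was tested on simulated data for macrophages after UUO, where 81% of genes changed by 2 and 21% of those changed by 1 on the log2 scale were recovered over 13332 genes. The members and lists were chosen with earlier results of these data known. All 9 members were named; of the further list, up to 4 genes past the threshold per comparison with the largest change; and the 2 genes with the highest r per member. Exceptions, chosen after their values were seen, are C8g in PT cells and Cd59a in stromal cells; C4a, Gm20547, Cd55b and Gm16083 are named for shared or overlapping sequence. An item of the further list is not reported here. Alternatives were another pseudocount (0.1), no filter, rescaling to an equal sum with and without the 37 mitochondrial genes, quantile normalization, no trend, a replicate block, all populations or surgeries in 1 fit, and each sample left out. Sequences and coordinates are RefSeq GRCm38.p6 and GENCODE M21; figures used Python 3.11.15 and matplotlib 3.10.9.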

Additional observations from a re-analysis of the deposited data

Results flagged for a closer look

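In 5 of the 72 combinations of a gene and a group of 4 to 10 samples, the highest or lowest sample lay far from the others by Dixon's criterion, which chance alone meets in about 1 in 20. Macrophage UUO 2 was low in C1qa, at 176 FPKM with the next sample at 1355 FPKM, and in C1qc, at 1199 FPKM with the next at 1649 FPKM. Macrophage sham 4 was high in C1qa, at 1888 FPKM, and in C1qb, at 4105 FPKM, where the next samples had 1353 and 3422 FPKM. Stromal UUO 2 was high in C5ar1, at 4.26 FPKM, the next having 0.89 FPKM. No cause of these values was tested.

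The change with surgery differed between the 4 populations in 6 results by limma's moderated F test over all genes. After UUO these were C3 (adjusted p = 0.00215, rising most in PT cells), C4b (0.0158, past the threshold in PT cells, macrophages and stromal cells), Cfb (0.00655, past the threshold in each population but PT cells) and Cd55 (0.000471, with the 3 endothelial UUO values below all others of that population). Between rUUO and UUO it was Cd55 (0.0474), and between rUUO and sham C4b (0.00669). Endothelial C4b was under the filter and entered only through the other populations, so both C4b values restate their rise.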

How the results depend on the processing

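Of the 18 rises of the 9 genes, 18 held with a pseudocount of 0.1, 16 after rescaling to an equal sum or quantile normalization, 15 without the intensity trend, 14 without mitochondrial genes or with all populations in 1 fit, and 13 without the filter. The 18 include the PT rises of C4b and Cd55. These genes passed the filter in PT cells through UUO and rUUO samples, so no support is read from their calls. Counts of all genes past the threshold moved more. With a pseudocount of 0.1, PT rUUO against UUO had 265 and endothelial rUUO against UUO 4, for 437 and 8. Without the filter PT cells had 203 (rUUO against UUO) and 484 (rUUO against sham, for 852), macrophages 364, 1 and 303 (for 665, 0 and 459, in the order UUO against sham, rUUO against UUO, rUUO against sham), endothelial cells 127, 0 and 116 (for 265, 8 and 237) and stromal rUUO against UUO 200 (for 585). Macrophage rUUO against UUO had 2 after rescaling with or without mitochondrial genes and after quantile normalization. Scaling without mitochondrial genes gave 254 for PT rUUO against UUO and 418 for the difference between populations in rUUO against UUO (for 799); quantile normalization gave 411 for the latter, 2435 for PT UUO against sham (for 3747) and 360 for stromal rUUO against UUO. Without the trend PT rUUO against UUO had 257, macrophages 443 (UUO) and 1 (rUUO against UUO), endothelial cells 165, 5 and 128. With all populations in 1 fit macrophages had 1018, 35 and 753, endothelial cells 423, 67 and 452, and stromal rUUO against UUO 973. The cause was not tested.

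Replicate numbers were not taken to pair the samples: only 1 of 35 pairs of equal number in a population correlated above 0.1 (median r of 0.0128), as did 2 of 57 pairs of equal number and surgery in different populations (median r of 0.00931). The labels do not say whether an equal number marks the same mouse. Sham 4 was the lowest and sham 3 the highest in both macrophages and stromal cells for C3 and C4b, as UUO 3 and UUO 4 were for C4b and Cfb, and the tests between populations took all samples as independent. With the number within a surgery as block (estimated correlation of 0.0342) no call of a change that differed between populations was lost. For sham levels the replicate number was instead a term of the limma fit, and C1qb no longer passed between PT and endothelial cells (adjusted p = 0.0640). Within populations, with a replicate block in limma, 13 of the 18 rises held. In rUUO against sham those lost were macrophage C4b (adjusted p = 0.133), endothelial C3 (0.0502) and Cfb (0.0998), and stromal Cd55 (0.0686). After UUO endothelial Cfb was lost (0.160). Counts with the block were 160 for PT rUUO against UUO, 346 and 115 for macrophages (UUO and rUUO against sham), 101, 0 and 68 for endothelial cells, and 116 and 1574 for stromal cells (rUUO against UUO, and against sham, for 2407). C1qa in macrophage rUUO against sham was then −0.34 and stromal C3 in rUUO against UUO −0.23, both of opposite sign.

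No result past the threshold in a surgery comparison turned its sign. Small changes did. Scaling without mitochondrial genes and quantile normalization gave 0.17 and 0.16 for PT Cfb (rUUO against UUO), and in sham 0.24 and 0.56 for C1qb (PT minus endothelial), 0.033 and 0.53 for C1qb and 0.079 and 0.73 for C1qc (PT minus stromal). Quantile normalization gave −0.13 for PT Cd55 and −0.11 for endothelial Cd55 (rUUO against sham), −0.15 for C3ar1 and −0.14 for C5ar1 in macrophages after UUO, 0.12 for C1qb and 0.26 for C1qc (rUUO against UUO) and 0.016 for C1qc (rUUO against sham). Rescaling to an equal sum gave −0.0065 for C3ar1, −0.021 for C5ar1, 0.051 for C1qc (rUUO against UUO) and, in stromal cells, −0.0021 for C3. Scaling without mitochondrial genes gave −0.0064 for macrophage C4b and −0.022 for stromal C3, both in rUUO against UUO.

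Leaving out 1 sample gave 2573 to 3888, 121 to 469 and 566 to 810 genes in PT cells, 272 to 736, 0 to 15 and 207 to 653 in macrophages, 146 to 231, 3 to 10 and 119 to 336 in endothelial cells, and 2963 to 3717, 289 to 768 and 1912 to 2561 in stromal cells. Differences between populations ran from 4187 to 4884, 555 to 1015 and 1923 to 2286, and sham levels from 11394 to 12040. Small changes again turned: PT Cfb in rUUO against UUO ran from −0.14 to 0.087 and PT Cd55 in rUUO against sham from −0.24 to 0.50. In macrophages after UUO, C1qa ran from −1.04 to 0.022, C1qb from −0.21 to 0.0050, C3ar1 from −0.048 to 0.16 and C5ar1 from −0.025 to 0.090. In rUUO against UUO macrophage C1qc ran from −0.15 to 0.063 and C4b from −0.23 to 0.28, and in rUUO against sham C1qa from −0.039 to 0.18 and Cd55 from −0.064 to 0.76. Endothelial Cd55 in rUUO against sham ran from −0.17 to 0.26, and stromal C3 and C4b in rUUO against UUO from −0.65 to 0.72 and from −0.46 to 0.57. Without counts, precision at low FPKM is unknown.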
